A study of Mus musculus with 12 samples.

Results

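Cytosolic ribosomal protein genes encode the protein subunits of the cytoplasmic ribosome. They were taken by symbol from a table of chromatin signal over gene windows: symbols of the form Rpl or Rps plus a number with an optional A, X or L and digit, Rplp0 to Rplp2, and Rpsa. This gave 85 of 25507 windows (0.333%), with 52 genes of the large and 33 of the small subunit. Of these, 77 are the canonical genes and 8 are paralogs with a minor or tissue-restricted role (Rpl22l1, Rps27l, Rpl7l1, Rpl3l, Rpl32l, Rpl10l, Rpl39l and Rps4l).

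The cells were KPC1199, a murine pancreatic ductal adenocarcinoma line of C57BL/6 background grown in culture. They were profiled by CUT&Tag, in which an antibody directs a transposase to cut and tag the DNA beside a chromatin mark. Each of 4 marks was read in 3 cell states, with 1 library per mark and state and 12 libraries in all. The comparisons ask how the marks differ with IFN-gamma, the T-cell cytokine to which tumour cells respond by raising PD-L1, and between cells with high PD-L1 and the whole treated culture. PD-L1 high cells received IFN-gamma at 10 ng/ml, and only those with high PD-L1 were profiled. Unselected treated cells, drawn in the figures as IFN-gamma, all cells, received the same dose and were profiled whole. Untreated cells received no IFN-gamma and were also profiled whole. The sources used here give neither the length of treatment nor the way in which PD-L1 high cells were obtained. All groups are 1 cultured line, and a difference between libraries has no replicate check, so no p-value is given.

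H3K4me3 is trimethylated lysine 4 of histone H3 and lies at active promoters. H3K27Ac is the acetylated lysine of active promoters and enhancers. H3K27me3 is the product of PRC2, a Polycomb complex, and marks repressed genes. The other Polycomb complex, PRC1, ubiquitinates histone H2A, a mark that the labels name H2A119Ub. Values are normalised tags per window of 6000 bp, a reading inferred from the deposited values. In 11 libraries 1 tag was worth 0.989 to 1.03. It was worth 1.32 in the unselected treated library for H2A119Ub, where counting error is therefore larger. In the H3K4me3 data 6 of 6 epithelial and ductal markers, 1 of 6 leukocyte markers and 2 of 5 fibroblast and endothelial markers lay above the median window. In bulk libraries, a mark on fewer cells and less of the mark per cell cannot be told apart.

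Ribosomal proteins assemble with ribosomal RNA in the nucleolus, and their genes are transcribed at high levels in nearly all dividing cells. Many of their mRNAs begin with a C and a run of pyrimidines, the terminal oligopyrimidine motif, through which mTOR signalling controls their translation. In human monocytic cells, IFN-gamma leads to phosphorylation and release of RPL13A from the ribosome, where it takes part in silencing the translation of inflammatory mRNAs. The genes have many processed pseudogenes and near-identical copies, so reads at exons can be shared between copies and levels are uncertain to that degree.

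Promoters of 64 of the 85 genes were found in the RefSeq promoter table (build GRCm38.p6, known as mm10), which spans 250 bases before to 50 after the start. The sequences below run from 80 bases before the RefSeq start to 20 bases from it onward, 5′ to 3′ in the direction of the gene. Capitals mark runs of at least 8 pyrimidines within 30 bases of the start or after it, the ETS core CCGGAAG and the TATA box TATAAA. Rps6, Rpl38 and Rpl13a are shown for the pyrimidine run of the family. Rps27, Rps13 and Rpl22l1 are shown because, with Rpl21, they had the highest H3K27Ac ratios of treated over untreated cells. Rps4x is shown for its H3K27me3 ratio in PD-L1 high cells. That ratio was the highest in both comparisons of these cells, among genes above the level filter given below. Their positions are chr4:86857348-86857447 (minus strand) for Rps6, chr11:114668500-114668599 (plus strand) for Rpl38, chr7:45128726-45128825 (minus strand) for Rpl13a and chr3:90213629-90213728 (minus strand) for Rps27. Those of the others are chr7:116334171-116334270 (minus strand) for Rps13, chr3:28805428-28805527 (plus strand) for Rpl22l1 and chrX:102189372-102189471 (minus strand) for Rps4x.
Rps6: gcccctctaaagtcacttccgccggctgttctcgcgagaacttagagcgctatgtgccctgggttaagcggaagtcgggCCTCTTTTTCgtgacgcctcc
Rpl38: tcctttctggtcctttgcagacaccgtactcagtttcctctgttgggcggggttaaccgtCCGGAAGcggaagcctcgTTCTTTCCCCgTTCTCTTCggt
Rpl13a: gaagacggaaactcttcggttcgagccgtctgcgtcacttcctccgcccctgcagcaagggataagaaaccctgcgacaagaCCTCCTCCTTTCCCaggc
Rps27: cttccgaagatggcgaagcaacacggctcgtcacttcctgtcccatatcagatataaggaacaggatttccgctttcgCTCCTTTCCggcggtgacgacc
Rps13: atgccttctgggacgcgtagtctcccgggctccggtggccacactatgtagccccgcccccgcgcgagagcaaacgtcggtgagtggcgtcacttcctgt
Rpl22l1: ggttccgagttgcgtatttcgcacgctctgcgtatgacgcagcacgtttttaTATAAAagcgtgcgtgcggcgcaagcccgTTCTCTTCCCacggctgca
Rps4x: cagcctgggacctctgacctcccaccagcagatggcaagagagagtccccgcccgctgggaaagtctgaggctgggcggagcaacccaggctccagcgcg
The start lay on a C followed by at least 4 pyrimidines in 13 of the 64 promoters (20.3%), among them Rps6, Rpl38 and Rps27 above, against 2.34% of 18651 promoters of genes in the table. A run of at least 10 pyrimidines within 50 bases of the start, a measure chosen after seeing the data, was present in 41 (64.1%), against 17.5% of all. Rps27, Rps13 and Rps4x have no such run. The ETS core was present on either strand in 25 (39.1%), against 11.7% of all and 21.7% of the quartile of promoters with most H3K4me3. The YY1 core GATGGC was present in 21.9%, against 13.8% of all and 15.9% of that quartile. The GC box GGGCGG (59.4%, against 45.8% of all and 72.3% of that quartile), the E-box CACGTG (7.81%, against 8.11% and 10.8%) and the TATA box (10.9%, against 13.0% and 5.46%) were searched on both strands as well. The TATA box was found in Rpl22l1, Rpl32l, Rpl36a, Rpl39, Rplp0, Rps2 and Rps28. A match describes the letters only, and motifs can overlap. Median H3K4me3, averaged over the 3 libraries, was 745 tags over the 41 promoters with the long pyrimidine run and 648 tags over the 23 without it. The 23 include the paralogs Rpl10l, Rpl39l and Rpl3l, with 0.33, 1.33 and 76.5 tags, and the 41 include Rpl32l, with 2.65 tags. The medians are thus not over like genes, and their difference was not tested.

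The genes are short and lie close to others. Their median length was 3175 bp (592 to 11774 bp), against 14800.5 bp over all genes with coordinates, and 78 (91.8%) were shorter than the 6000 bp window, against 30.5% of all. They are spread over 19 chromosomes, with 14 on chromosome 7, 8 on chromosome 17 and 4 on X. A small nucleolar RNA gene lies inside 24 of them. In 13, the H3K4me3 signal was within 5% of that of a coding neighbour in every library, so that a promoter shared with that neighbour was counted under both names. Examples are Rps27 with Rab13, Rpl12 with Lrsam1, Rpl7a with Med22, Rps28 with Ndufa7 and Rps18 with Vps52. The median H3K4me3 of these 13, averaged over the 3 libraries, was 1069 tags, against 700.4 tags over the 64 canonical genes without such a neighbour.

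H3K4me3 was high at nearly all of these genes in every cell state. The median of the 85 was 770.7 tags in PD-L1 high cells, 773.7 in unselected treated cells and 630 in untreated cells, against medians of 51.5, 52.6 and 66.7 over all windows. The 77 canonical genes ranged from 281 to 3131 tags, 288 to 2990 tags and 222 to 2562 tags in these libraries. A ribosomal protein gene was in the top decile of all windows 26, 26 and 28 times, and the median gene lay below that decile. The family held 0.844%, 0.864% and 0.861% of all window signal with 0.333% of windows. Counting intervals at 95% on these shares (Clopper-Pearson, counting error only) were 0.838 to 0.851, 0.858 to 0.871 and 0.855 to 0.868.

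**Figure D1:**
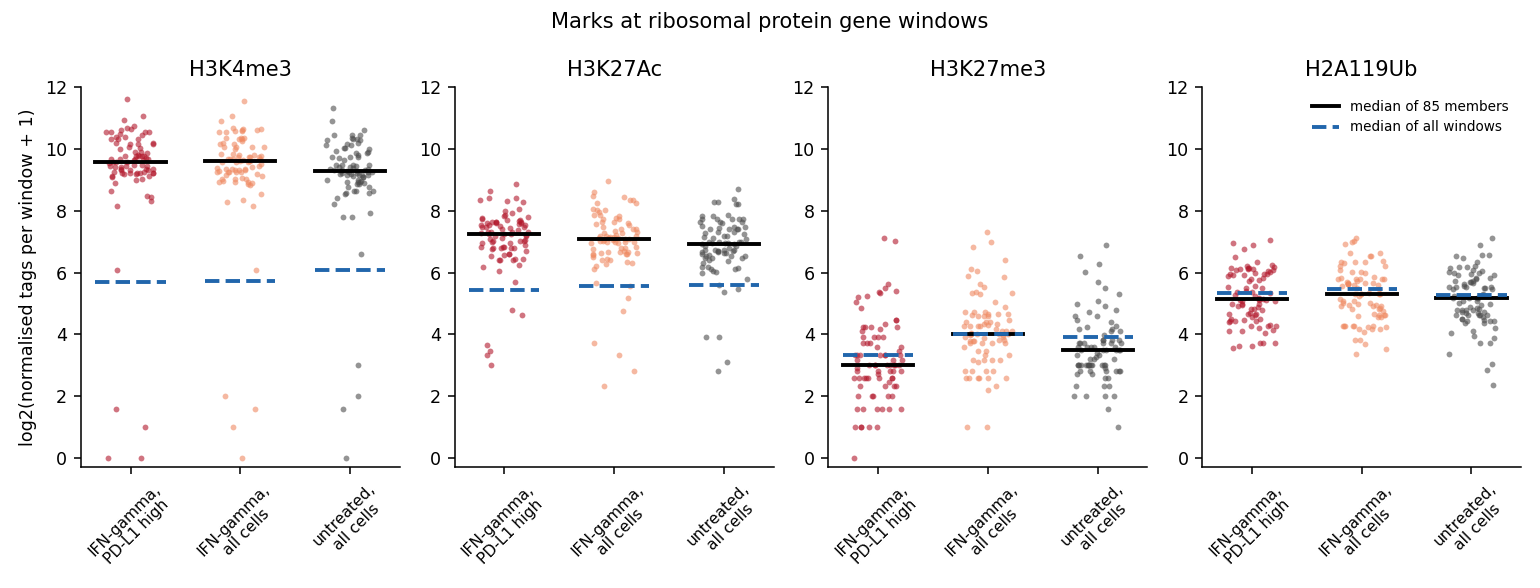
Level of each mark at the 85 ribosomal protein gene windows (points), as log2 of normalised tags per window plus 1, in PD-L1 high, unselected treated and untreated cells; lines give the median of the 85 genes and of all 25507 windows. H3K4me3 and H3K27Ac lie above the median of all windows for all but a few genes, while the H3K27me3 and H2A119Ub medians of the genes lie at or below those of all windows.

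The strongest H3K4me3 lay at Rpl7, a large-subunit protein, with 3131 tags in PD-L1 high cells, 2990 in unselected treated cells and 2562 in untreated cells. The window of Rdh10, whose gene lies 1449 bp away, had 3523, 3335 and 2963 tags, and windows of 6000 bp at both can hold the same signal. Rpl7a, whose window is shared with Med22, followed with 2131, 2158 and 1941 tags. Among canonical genes the X-linked Rps4x was lowest, with 281, 288 and 222 tags. The P stalk of the large subunit recruits translation factors, and its genes had middle levels: Rplp0 had 885, 861 and 804 tags, Rplp1 had 637, 644 and 489, and Rplp2 had 764, 861 and 638. Rpl5 and Rpl11, which form the 5S particle and can bind and inhibit Mdm2, had 879, 922 and 616 tags and 792, 786 and 680 tags.

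Small-subunit genes had somewhat lower H3K4me3 than large-subunit genes. Their medians were 697, 654 and 580.0 tags, against 857, 819 and 654 tags for the large subunit. Rps6, the target of S6 kinase, had 557 tags in PD-L1 high cells, 538 in unselected treated cells and 400.2 in untreated cells. Rpsa, also known as the laminin receptor precursor, had 599.5, 578 and 486 tags. Rps19, mutated in human Diamond-Blackfan anaemia, had 799, 810.5 and 722 tags. Rpl13a had 1139, 1147 and 1037 tags, and Rpl38, which in mice is needed for the translation of Hox mRNAs, had 1553, 1561 and 1279 tags.

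The paralogs were not alike. Rpl22l1, Rps27l and Rpl7l1 carried H3K4me3 like canonical genes. Rpl22l1, a paralog of the RNA-binding protein Rpl22, had 602 tags in PD-L1 high cells, 633 in unselected treated cells and 402 in untreated cells. Rps27l, known as a p53 target, had 607, 499 and 377 tags, and Rpl7l1 had 564, 518 and 435 tags. Of the other 5, 4 had almost no H3K4me3. Rpl10l and Rpl39l, expressed in testis, had 0.990, 0 and 0 tags and 0, 1.99 and 1.99 tags, and a window at 0 allows up to 3 tags. Rps4l had 1.98, 2.98 and 2.99 tags and Rpl32l had 0, 0.990 and 6.97 tags.

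Rpl3l, the muscle paralog of Rpl3, lay between these and carried the Polycomb mark. Its H3K4me3 was 66.8 tags in PD-L1 high cells, 66.5 in unselected treated cells and 96.1 in untreated cells. Its H3K27me3 was 128, 127 and 118.9 tags, against medians of 7.04, 15.2 and 10.2 tags over the 85 genes. Rpl3 itself had 1485, 1520 and 1299 tags of H3K4me3 and 9.05, 20.3 and 26.4 tags of H3K27me3, the reverse order of the marks. Rpl32l, which had almost no H3K4me3, also stood above the family in H3K27me3, with 36.2, 58.2 and 50.8 tags. It overlaps the gene Map7, whose own window had 428, 350 and 220 tags of H3K27me3. The window of Rpl32l can hold signal of that gene. Low H3K4me3 came with low H3K27me3 as well at Rpl10l (2.01, 8.10 and 3.05 tags), Rpl39l (0, 1.01 and 6.10 tags) and Rps4l (3.02, 3.55 and 4.06 tags), so only Rpl3l and Rpl32l of the low 5 carried the Polycomb mark above the family median in every library.

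**Figure D2:**
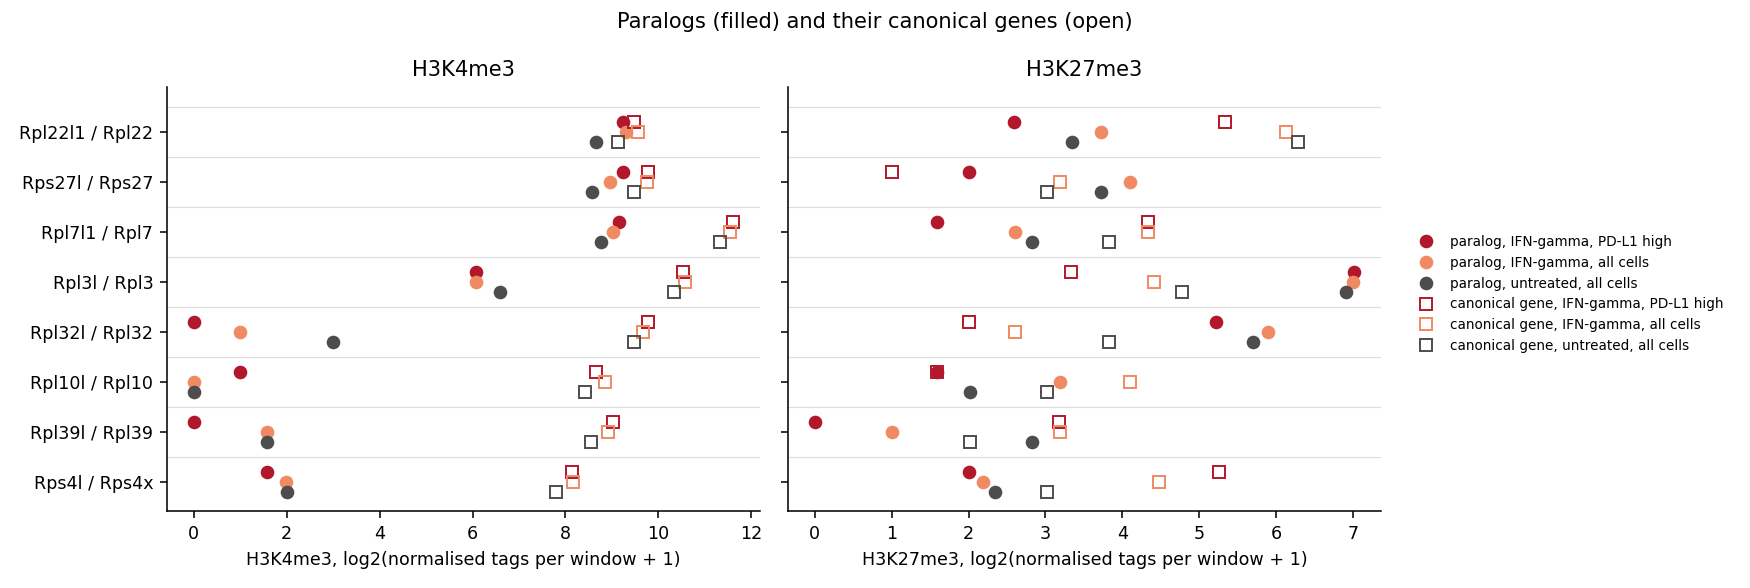
H3K4me3 and H3K27me3 at each paralog (filled circles) and its canonical gene (open squares), as log2 of normalised tags per window plus 1, in the 3 cell states. Rpl22l1, Rps27l and Rpl7l1 lie near or below their canonical genes in H3K4me3, the other 5 lie far lower, and Rpl3l and Rpl32l stand higher in H3K27me3 than their canonical genes.

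The other marks followed H3K4me3 to different degrees. H3K27Ac medians were 153 tags in PD-L1 high cells, 136 in unselected treated cells and 121 in untreated cells, against 42.5, 46.1 and 47.7 tags over all windows. Rpl7 (462, 499 and 336 tags) and Rpl10a (342, 347 and 414 tags) were highest in H3K27Ac by the mean of the 3 libraries. H2A119Ub medians were 34.2, 38.2 and 34.99 tags, close to the 39.9, 43.5 and 38.1 tags of all windows. Rpl10a (131, 125 and 138 tags) was among the genes with most H2A119Ub, and Rps4x (12.3, 11.9 and 4.12 tags) and Rpl39 (12.3, 18.5 and 6.17 tags) had least by the mean of the 3 libraries. Over the 77 canonical genes, H3K4me3 and H3K27Ac were correlated with rho of 0.83, 0.82 and 0.86 in these libraries. H3K4me3 and H2A119Ub had rho of 0.64, 0.60 and 0.63, and H3K4me3 and H3K27me3 had 0.036, 0.20 and 0.23. These are descriptions across genes, which share libraries, window length and base composition.

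H3K27me3 at most canonical genes rested on few tags. The canonical medians were 7.04, 15.7 and 10.2 tags in PD-L1 high, unselected treated and untreated cells. Those of all windows were 9.05, 15.2 and 14.2 tags. No ribosomal protein gene reached the top decile of windows in any state. The highest was Rpl26, a large-subunit protein that binds p53 mRNA, with 139 tags in PD-L1 high cells, 158 in unselected treated cells and 91.4 in untreated cells. After Rpl3l came Rps19 (48.8, 114 and 38.6 tags) and Rpl22 (39.2, 68.9 and 77.2 tags). Rpl23a (3.02, 6.08 and 1.02 tags) was lowest of the canonical genes.

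H3K4me3 at ribosomal protein genes stood close to the shift of all windows in every comparison, and H3K27Ac departed from it slightly. Ratios below are log2 of the value plus a pseudocount (in tags, 1.99 at H3K4me3, 5.06 at H3K27Ac, 2.03 at H3K27me3 and 8.18 at H2A119Ub), minus the median of kept windows. A window was kept where its mean over the 3 libraries reached the median window of the mark. Of the 85 genes, 81 were kept for H3K4me3, 79 for H3K27Ac, but 38 for H3K27me3 and 35 for H2A119Ub. The medians subtracted were, in the same order of marks, 0.23, 0.24, 0.22 and 0.24 for unselected treated over untreated cells, and 0.074, -0.046, -0.26 and -0.14 for PD-L1 high over unselected treated cells. For PD-L1 high over untreated cells they were 0.31, 0.20, -0.13 and 0.086. Both comparisons with untreated cells share the untreated library. Intervals on ratios are centred 95% counting intervals without the pseudocount.

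Without any filter, the summed H3K4me3 of the 85 genes was 1.20 times higher in unselected treated than in untreated cells, a log2 ratio of 0.26 (0.24 to 0.27), and the sum of all windows had 0.25. For PD-L1 high over unselected treated cells it was 0.029, against 0.062 for all windows, and for PD-L1 high over untreated cells 0.29, against 0.32. Among the kept windows, none of the 81 genes was at least 2-fold higher or lower in unselected treated than in untreated cells, against 0.361% higher and 1.03% lower of 12754 windows. None was called in PD-L1 high over unselected treated cells, against 0.00784% and 0.0784%. None was called in PD-L1 high over untreated cells, against 0.47% and 2.09%. The centred medians were 0.019, -0.034 and -0.021, but 0.25, 0.039 and 0.29 without centring, so their signs depend on the scaling. At 1.5-fold, 0 were higher and 1 lower, Rpl3l, in unselected treated over untreated cells (0.831% and 5.72% of all windows). Between PD-L1 high and unselected treated cells 0 and 0 were (0.306% and 0.862%), and over untreated cells 0 were higher and 1, again Rpl3l, lower (1.01% and 6.51%). The lower calls at 1.5-fold were fewer than the background share, and the 2-fold background is too small to set 81 genes against it. That background depends on level. In unselected treated over untreated cells, 5.06% of windows in decile 6 of H3K4me3 level were at least 2-fold lower. In deciles 8, 9 and 10, where most of these genes lie, 0%, 0% and 0.0392% were. Few lower calls are thus no trait of the family.

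The outermost H3K4me3 ratios after IFN-gamma were small. Rpl22l1 had 0.42 (0.24 to 0.60), with 633 tags in unselected treated cells and 402 in untreated cells. Rps23, at the decoding centre of the small subunit, had 0.39 (0.15 to 0.63), with 371 and 241 tags, and Rps13 had 0.37 (0.21 to 0.53), with 773 and 509.8 tags. At the other end were Rpl3l at -0.75 (-1.23 to -0.30), Rpl24 at -0.31 and Rps15a at -0.26. The range was narrower in PD-L1 high over unselected treated cells, with Rps27l and Rps3 at 0.21 and Rpl29 at 0.20. Rpl36 (-0.39), Rps16 (-0.27) and Rpl10 (-0.27) were lowest. Rps27l (0.37), Rps13 (0.36) and Rpl22l1 (0.27) were highest over untreated cells in the PD-L1 high library, and Rpl3l (-0.82), Rps15a (-0.29) and Rpl36 (-0.27) lowest.

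The highest H3K27Ac ratios after IFN-gamma were at 4 genes, which are 5.06% of the 79 kept and past 1.5-fold, against 3.97% of all windows. Their number is thus near the background. Rps13, a small-subunit protein, had 200.5 tags in PD-L1 high cells, 229 in unselected treated cells and 91.8 in untreated cells. The untreated library had the lowest value. Its ratio in unselected treated over untreated cells was 1.04 (0.72 to 1.45), which made it the 1 gene of 79 at least 2-fold higher, while none was 2-fold lower. The background was 0.251% higher and 0.643% lower of 12757 windows. The window of Snord14a, inside Rps13, had 304, 344 and 222 tags.

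Rpl21, Rpl22l1 and Rps27 were next. Rpl21 had 313 tags in PD-L1 high cells, 354 in unselected treated cells and 157 in untreated cells, a ratio of 0.91 (0.66 to 1.22) after IFN-gamma. Rpl22l1 had 191, 198 and 97.4 tags, with a ratio of 0.75 (0.43 to 1.15). Rps27 had 160, 158 and 77.6 tags, with a ratio of 0.75 (0.39 to 1.21), in a window shared with Rab13. Both comparisons over untreated cells rest on the same untreated library, so that the 2 treated libraries are no separate support. Rpl21 and Rps27 had H3K4me3 ratios of only 0.015 and 0.043. Among the lowest ratios after IFN-gamma were those of Rpl6 (-0.66, with 101 tags against 137 in untreated cells) and Rps18 (-0.61, in a window shared with Vps52).

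**Figure D3:**
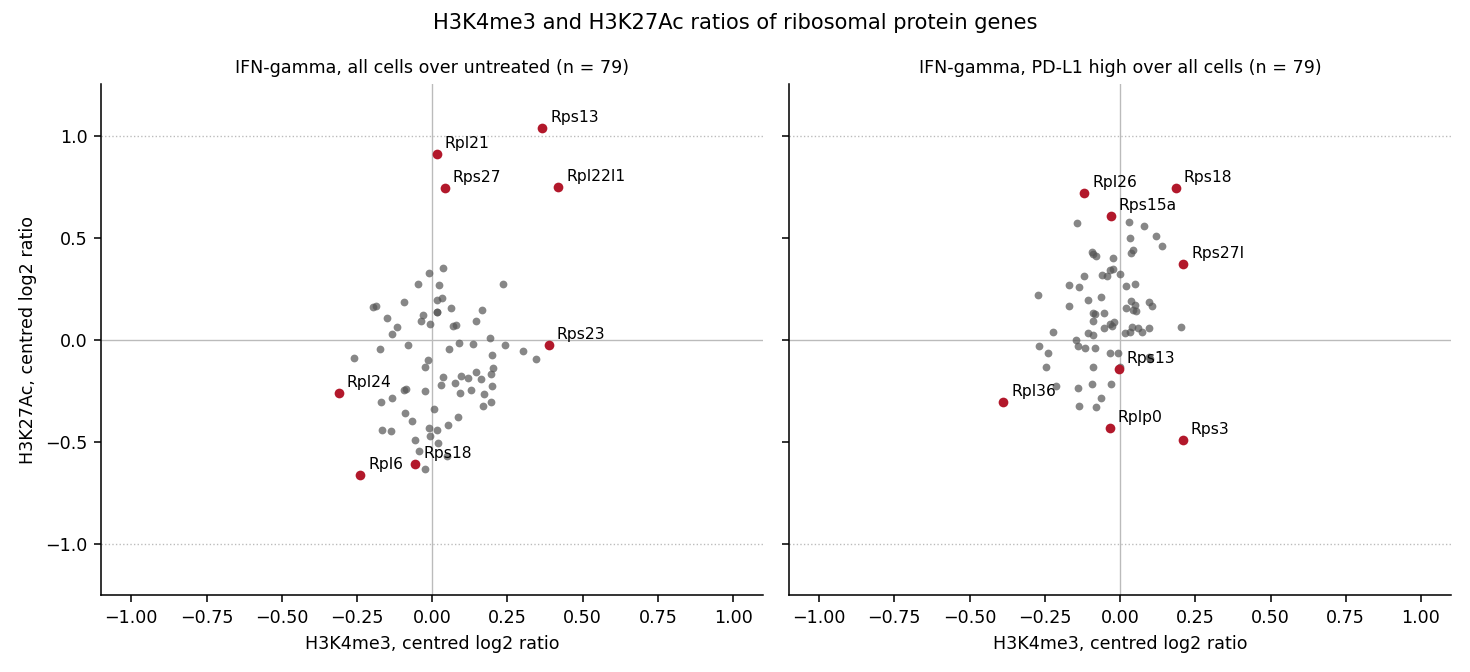
Centred log2 ratio of H3K27Ac against that of H3K4me3 for the 79 ribosomal protein genes kept for both marks, in unselected treated over untreated cells (left) and in PD-L1 high over unselected treated cells (right); dotted lines mark 2-fold. Rps13, Rpl21, Rps27 and Rpl22l1 stand apart in H3K27Ac on the left, and the spread of H3K27Ac exceeds that of H3K4me3 on both sides.

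As a family, H3K27Ac leaned slightly below the shift of all windows after IFN-gamma and slightly above it in PD-L1 high cells. The log2 ratio of the summed signal was 0.16 (0.13 to 0.20) in unselected treated over untreated cells, against 0.23 for all windows. It was 0.057 (0.021 to 0.092) in PD-L1 high over unselected treated cells, against -0.055 for all windows. The centred medians of the 79 kept genes were -0.10, 0.13 and 0.0088 for unselected treated over untreated, PD-L1 high over unselected treated and PD-L1 high over untreated cells. Without centring the medians over untreated cells were 0.14 for unselected treated cells and 0.21 for PD-L1 high cells, so the sign of the first depends on the scaling. Above 0 lay 55 of 79 in PD-L1 high over unselected treated cells, and none was called 2-fold, against 0.0784% higher and 0.196% lower of all windows. None was called in PD-L1 high over untreated cells either, against 0.392% and 1.77%. At 1.5-fold, 4 genes were higher and 3 lower in unselected treated over untreated cells, against the 3.97% above and 5.86% of all windows. There were 3 and 0 in PD-L1 high over unselected treated cells (1.87% and 2.38%), and 6 and 0 in PD-L1 high over untreated cells against 5.15% and 8.03%. In deciles 8, 9 and 10 of H3K4me3, the genes had medians of -0.067, -0.044 and -0.23 in unselected treated over untreated cells. All kept windows there had 0.043, 0.067 and 0.069. In PD-L1 high over unselected treated cells the genes had 0.14, 0.17 and 0.049, and the windows 0.026, 0.018 and -0.0069. For PD-L1 high over untreated cells the genes had 0.054, 0.12 and -0.14, and the windows 0.065, 0.072 and 0.052.

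Rps18 had the highest H3K27Ac ratio in PD-L1 high over unselected treated cells, at 0.74 (0.44 to 1.09), with 213 tags in PD-L1 high cells and 130 in unselected treated cells. Untreated cells had 169 tags there, between these values. Rpl26 had 0.72 and Rps15a 0.61. Rps3, a protein of the mRNA entry channel, had -0.49 (-0.94 to -0.10), with 84.0 tags in PD-L1 high cells and 124 in unselected treated cells, and Rplp0 had -0.43 and Rpl23a -0.33. Against untreated cells, PD-L1 high cells had the highest ratios at Rps13 (0.88), Rps27 (0.80) and Rpl21 (0.77), and Rpl11 (-0.54), Rpl6 (-0.51) and Rpl36 (-0.50) were lowest.

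H3K27me3 was low at these genes and differed most between states. The sum over all 85 genes was 1186 tags in PD-L1 high cells, 1995 in unselected treated cells and 1331 in untreated cells. The library of unselected treated cells was thus the high one, and PD-L1 high cells had the lowest sum and share. The family held 0.0559%, 0.0995% and 0.0804% of the window signal, with counting intervals of 0.0527 to 0.0591, 0.0952 to 0.104 and 0.0761 to 0.0849. The log2 ratio of the sums in unselected treated over untreated cells was 0.58 (0.48 to 0.69), against 0.28 for all windows, with 66 genes higher and 19 lower, where 53.1% of all windows were higher. It was -0.75 (-0.86 to -0.65) in PD-L1 high over unselected treated cells, against 0.083 for all windows, with 8 genes higher and 77 lower, where 66.1% of all windows were lower. It was -0.17 (-0.28 to -0.052) in PD-L1 high over untreated cells, against 0.36, with 28 higher and 57 lower, where 65.5% of all windows were lower.

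Other windows with high H3K4me3 had H3K27me3 ratios of the same sign in both comparisons that use the unselected treated library. When all windows were put in deciles of H3K4me3, 75 of the 85 genes fell in deciles 8 to 10. In the top decile, the centred median H3K27me3 ratio of the 1742 kept windows in unselected treated over untreated cells was 0.40, and that of the 17 kept ribosomal protein genes there was 0.54. Between PD-L1 high and unselected treated cells they were -0.85 for the windows and -0.85 for the genes, against 0.30 for windows of the lowest decile. Between PD-L1 high and untreated cells they were -0.39 and -0.41. In decile 8, with 11 kept genes, the genes had 0.64, -0.18 and 0.31 and the windows 0.21, -0.51 and -0.24 in the same order of comparisons. In decile 9, with 6 kept genes, the genes had -0.024, -0.68 and 0.033 and the windows 0.28, -0.63 and -0.30. The part that H3K4me3 level plays in the H3K27me3 ratios was not tested.

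**Figure D4:**
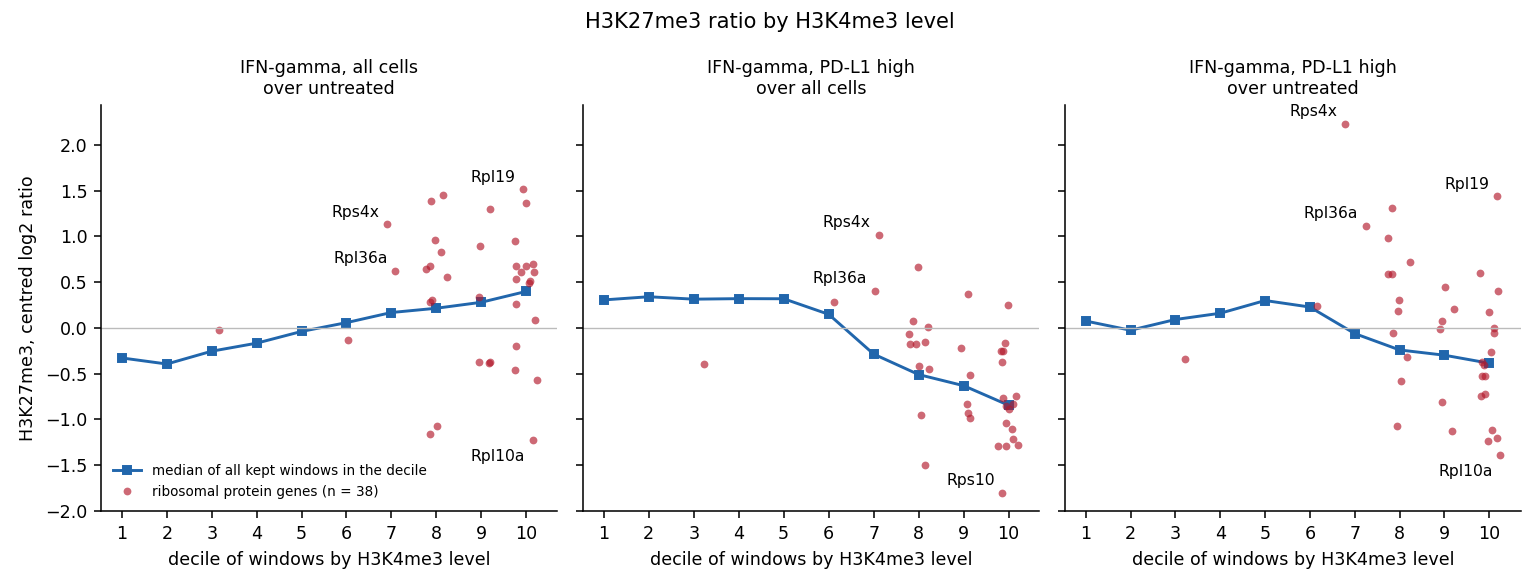
Centred log2 ratio of H3K27me3 by decile of H3K4me3 level (1 lowest, 10 highest), as the median of all kept windows (squares) and for the 38 kept ribosomal protein genes (points), in the 3 comparisons. Medians of all windows climb with the H3K4me3 level in unselected treated over untreated cells. In PD-L1 high over unselected treated cells they are level over deciles 1 to 5 and then descend, and Rps4x is the highest gene in both panels with the PD-L1 high library.

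Among the 38 kept genes, 6 were at least 2-fold higher and 3 lower in unselected treated than in untreated cells, against 3.79% and 4.51% of 12757 windows. Of the kept windows in deciles 8, 9 and 10 of H3K4me3, 7.11%, 9.13% and 11.4% were at least 2-fold higher. Those lower were 2.55%, 1.90% and 1.44%. At 1.5-fold, 18 were higher and 3 lower, against 12.8% and 14.2% of all windows. The filter on the mean of 12.8 tags favours such genes: 5 of the 6 higher ones were under it in untreated cells, so these counts describe the kept genes and support nothing about the 85. The centred median was 0.55 over the kept genes and 0.36 over all 85. Rpl19, a large-subunit protein, had 28.2 tags in PD-L1 high cells, 38.5 in unselected treated cells and 10.2 in untreated cells, with a ratio of 1.51 (0.67 to 2.87). The overlapping gene Cacnb1 had 219, 181 and 151 tags in its own window. Rps6 had 16.1, 40.02 and 11.2 tags, with a ratio of 1.45 (0.63 to 2.74). Rps19 had the largest counts of this group, with a ratio of 1.29 (0.80 to 1.91). Rpl17 (1.39), Rps28 (1.36) and Rps4x (1.13) were the others. The lower ones were Rpl10a at -1.22 (10.1, 15.2 and 32.5 tags), Rpl27a at -1.17 and Rpl14 at -1.07.

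In PD-L1 high over unselected treated cells, 1 kept gene was at least 2-fold higher and 8 lower, against 1.37% and 12.6% of all windows. Kept windows in deciles 8, 9 and 10 of H3K4me3 were at least 2-fold lower in 22.4%, 26.9% and 37.8% of cases. They were higher in 0.547%, 0.0794% and 0.172%. At 1.5-fold, 2 were higher and 17 lower, against 11.8% and 25.2% of all windows. Of the 8 lower genes, 7 were under the filter of 12.8 tags in PD-L1 high cells and were kept through the other libraries, so here too the counts only describe the kept genes. The 8 became 2 with quantile normalization or the filter at the 75th percentile, 3 with the larger pseudocount and 17 without centring. The share of all windows called under these settings was not computed. The 1 higher gene was not called without centring, with the larger pseudocount or with the stricter filter. The centred median was -0.43 over the kept genes and -0.45 over all 85. Rps10, at the mRNA entry of the small subunit, had 4.02 tags in PD-L1 high cells and 23.3 in unselected treated cells, with a ratio of -1.80 (-4.27 to -0.72). Rps26, at the mRNA exit, had 6.04 and 25.3 tags, with a ratio of -1.50 (-3.38 to -0.49). Rpl27, Rpl31, Rpl36, Rpl41, Rps2 and Rps28 had ratios of -1.30, -1.30, -1.28, -1.22, -1.11 and -1.04. These levels rest on few tags, so the intervals are wide. Rps19 had -0.93 (-1.48 to -0.47), so that its 114 tags stood out in the library of unselected treated cells alone.

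In PD-L1 high over untreated cells, 4 kept genes were at least 2-fold higher and 6 lower, against 2.54% and 8.88% of all windows, with a centred median of -0.033 over the kept genes and -0.15 over all 85. The median over the kept genes was 0.30 under quantile normalization, so its sign depends on the scaling. That over all 85 was 0.034 when centred on all windows in place of kept ones. In deciles 8, 9 and 10 of H3K4me3, 14.6%, 15.1% and 16.3% of kept windows were at least 2-fold lower. Those higher were 1.91%, 2.38% and 1.32%. At 1.5-fold, 8 genes were higher and 9 lower, against 17% and 21% of all windows. The higher ones were Rps4x (2.23), Rpl19 (1.44), Rpl17 (1.31) and Rpl36a (1.11). The lower ones were Rpl10a (-1.39), Rpl3 (-1.23), Rps10 (-1.21), Rps16 (-1.13), Rpl31 (-1.12) and Rpl27a (-1.07). The intervals of Rps10, Rps16 and Rpl31 included 0. All 4 higher genes were under the level filter in untreated cells, and all 6 lower ones in PD-L1 high cells. They were kept through the other libraries, so these counts too describe only the kept genes.

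Rps4x had the highest H3K27me3 ratio of the kept genes in both comparisons of PD-L1 high cells. This X-linked gene (chrX:102184941-102189391, GRCm38.p6) encodes a small-subunit protein. Its H3K27me3 was 37.2 tags in PD-L1 high cells, 21.3 in unselected treated cells and 7.11 in untreated cells, with Poisson intervals of 26.2 to 51.3, 13.2 to 32.5 and 2.86 to 14.7. The intervals of the PD-L1 high and untreated libraries did not overlap, but the gene was picked because its ratio was the highest of the kept genes. Its untreated value was under the level filter, so it was kept through the treated libraries. The gap between these intervals is thus no separate support for a difference. The ratio was 1.13 (0.074 to 2.84) in unselected treated over untreated cells, 1.01 (0.26 to 1.91) in PD-L1 high over unselected treated cells and 2.23 (1.33 to 3.93) in PD-L1 high over untreated cells. The last was the highest of the 244 kept X-linked windows, which the same filter on the mean chose. Of these, 22 (9.02%) were at least 2-fold higher and 7 (2.87%) lower, with a median of 0.21. Over all windows, 2.54% and 8.88% were. The X-linked median was -0.13 in unselected treated over untreated cells and 0.25 in PD-L1 high over unselected treated cells.

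H3K27Ac at Rps4x was lower in both IFN-gamma libraries, with 26.8 tags in PD-L1 high cells, 26.3 in unselected treated cells and 47.7 in untreated cells. The ratios, below the level filter, over untreated cells were -0.93 (-1.78 to -0.31) for PD-L1 high cells and -0.99 (-1.85 to -0.37) for unselected treated cells. Its H3K4me3 ratio over untreated cells was 0.033 in PD-L1 high cells and 0.14 in unselected treated cells, with intervals that included 0. Rpl36a, also on X, had 18.1, 16.2 and 8.13 tags of H3K27me3 and a ratio of 1.11 (0.0091 to 2.69) in PD-L1 high over untreated cells. The other X-linked genes lay below the filter, with 8.05, 8.10 and 3.05 tags at Rpl39 and 2.01, 16.2 and 7.11 tags at Rpl10, so that all 4 X-linked genes had more tags in unselected treated than in untreated cells, as had 53.1% of all windows. In PD-L1 high cells they differed, with Rpl10 below and the other 3 above their untreated values.

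**Figure D5:**
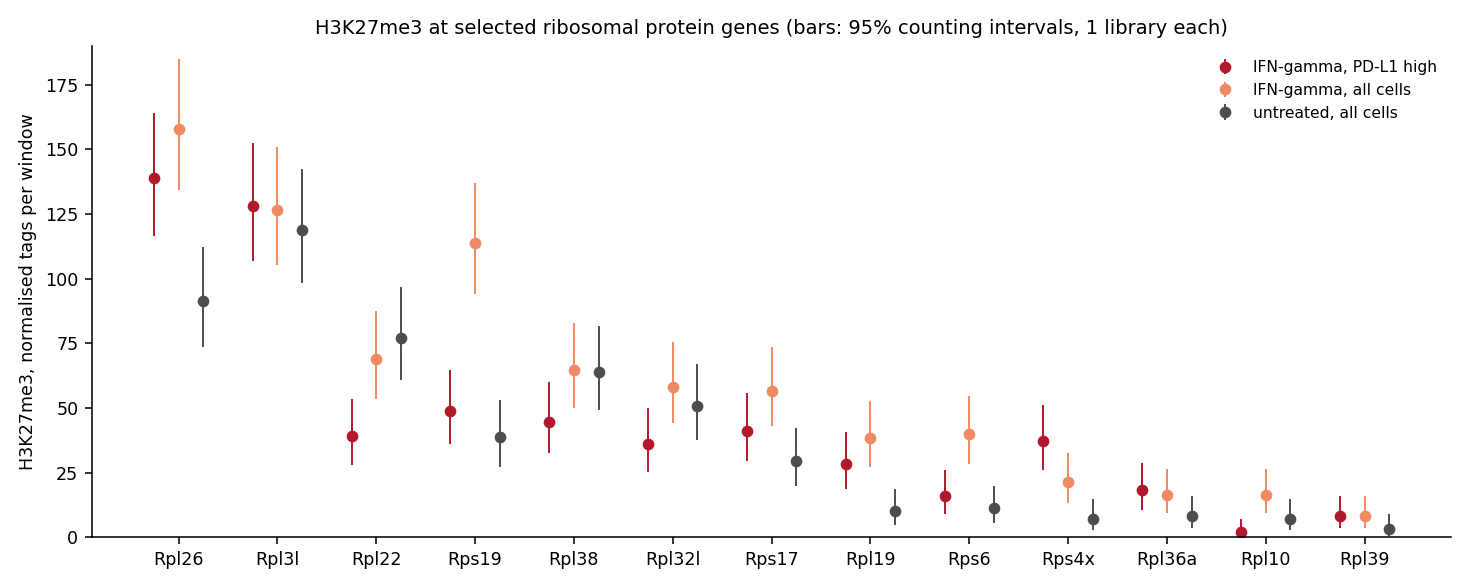
H3K27me3 in normalised tags per window at 13 ribosomal protein genes, chosen by level and ratio, in PD-L1 high, unselected treated and untreated cells, with 95% Poisson counting intervals from 1 library each. Rps19 is high in the library of unselected treated cells, Rpl3l is even across the libraries, and Rps4x is highest in PD-L1 high cells.

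H2A119Ub at ribosomal protein genes showed no 2-fold call. The background was 0.408% higher and 0.894% lower in unselected treated over untreated cells, of 12754 windows. It was 0.361% and 0.517% in PD-L1 high over unselected treated cells, and 0.227% and 0.306% in PD-L1 high over untreated cells. Centred medians of the 35 kept genes were -0.11, 0.013 and -0.038. Without centring the first was 0.12 and the second -0.13. At 1.5-fold, 3 were higher and 2 lower in unselected treated over untreated cells (5.61% and 6.79% of all windows), 2 and 2 in PD-L1 high over unselected treated cells (5.3% and 6.04%), and 0 and 1 in PD-L1 high over untreated cells against 4.19% and 4.26%. Rplp1 was highest after IFN-gamma at 0.85 (0.37 to 1.74), with 73.8 tags in unselected treated cells and 30.4 in untreated cells. Rpl22 had 0.67 and Rpl31 0.59, and Rps15 (-0.79), Rpl8 (-0.67) and Rpl7a (-0.58) were lowest.

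Rpl3 (0.65) and Rpl7a (0.58) were among the genes with the highest H2A119Ub ratios in PD-L1 high over unselected treated cells. Rpl21 (-0.77), Rplp1 (-0.60) and Rps28 (-0.35) were lowest. Over untreated cells, Rpl3 and Rps29 had 0.57 and Rps2 0.47. Rpl21, with 25.1 tags in PD-L1 high cells, 54.0 in unselected treated cells and 48.9 in untreated cells, had -0.87 (-1.82 to -0.32), and Rps15 had -0.50 and Rpl36 -0.44. The library of unselected treated cells is the one in which 1 tag is worth 1.32, and its part in the ratios of Rplp1 and Rpl7a, whose signs were opposite in both comparisons that use it, was not tested.

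Genes of related machinery were measured in the same libraries. The 78 mitochondrial ribosomal protein genes had H3K4me3 medians of 619.8 tags in PD-L1 high cells, 594 in unselected treated cells and 536 in untreated cells, and the 34 constitutive proteasome genes had 629, 606 and 477 tags. For H3K27me3, the median ratios of the 44 kept mitochondrial genes were 0.30 in unselected treated over untreated cells and -0.60 in PD-L1 high over unselected treated cells, beside 0.55 and -0.43 for the 38 cytosolic genes. The 19 kept translation factor genes had 0.47 and -0.55, and the 14 kept ribosome biogenesis genes 0.35 and -0.35. Of the 44, 3 were at least 2-fold higher and 2 lower after IFN-gamma, against 3.79% and 4.51% of all windows. None was higher and 13 were lower in PD-L1 high over unselected treated cells, against 1.37% and 12.6%. The same filter on the mean chose these genes, so their counts also describe only the kept ones.

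The 33 kept genes of the constitutive proteasome had H3K27Ac medians of 0.16, 0.17 and 0.30 in unselected treated over untreated, PD-L1 high over unselected treated and PD-L1 high over untreated cells, beside -0.10, 0.13 and 0.0088 for the cytosolic ribosomal protein genes. Of the ribosomal protein genes whose symbols lie outside the rule, Rpl36al had 1216, 1129 and 977 tags of H3K4me3 in PD-L1 high, unselected treated and untreated cells, and Rack1 had 1375, 1362 and 1201 tags. Fau, which encodes a ubiquitin-like protein fused to a small-subunit protein, was listed at 3.96, 8.94 and 3.98 tags. This gene is expressed in nearly all cells, and where its window lies is not given in the files, so the value may not be that of its promoter.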

How the data were processed

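Signal over gene windows was deposited by the authors as 1 table for the 12 libraries, and its window length and scaling are inferred from the values. Multiplied by 6000, 100% of the values lay within 10% of steps of 0.5 tags. Bowtie2 2.4.2, HOMER, MACS2 2.2.7.1 and mm10 are named per the submitters' processing notes, without role. If the authors scaled libraries to 10 M tags (10 to the power 6 each), depth was 7.59 to 10.1 M. Groups come from the sample titles. Pseudocounts were the 10th percentile of values above 0, and filters were 57.6, 46.3, 12.8 and 41.1 tags for H3K4me3, H3K27Ac, H3K27me3 and H2A119Ub. Pseudocounts understate ratios at low windows. Levels have exact Poisson and ratios Clopper-Pearson intervals, which cover counting error only. No use of molecular identifiers is stated, so duplicate tags may be counted and these intervals may be too narrow. All value columns were used. Of the 25507 windows, 57 repeat a name, and 98.4% matched RefSeq symbols, from which coordinates come. Python 3.11.15, numpy 2.4.6, pandas 2.3.3 and scipy 1.17.1 were used, and the scripts were tested on simulated data. Genes named were a list of functional interest, the 2 highest and 2 lowest in level per mark, the 3 highest and 3 lowest kept ratios per comparison, and 2-fold calls of at most 10, and others as examples after their values were seen. Members and lists were chosen with earlier results of these data known. Alternatives tried were no centring, quantile normalization, other pseudocounts, filters and fold thresholds, and other bases for the shares. Some genes that this rule names are not reported here.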

Additional observations from a re-analysis of the deposited data

How the results depend on the processing

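No paired analysis was possible because each mark and state has 1 library and the labels carry no replicate numbers, and for the same reason none was left out in turn. Comparisons are written A (unselected treated over untreated), B (PD-L1 high over unselected treated) and C (PD-L1 high over untreated). Named genes gave 335 values, recomputed 1340 times; 1295 stayed within their counting interval, 45 did not and 0 reversed. Low H3K27me3 and H2A119Ub tags limit what can be read from single genes. The share of all windows called was not computed under the settings below, other than the 1.5-fold threshold, for which it is given above. Counts under those settings describe the ribosomal protein genes alone and cannot be set against a background.

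At a 1.5-fold threshold the counts differed from those at 2-fold. H3K4me3 had 1 lower in A and 1 in C. H3K27Ac had 4, 3 and 6 higher in A, B and C, and 3 lower in A. H3K27me3 had 18, 2 and 8 higher, and 17 lower in B. H2A119Ub had 3 higher in A and 2 in B, and 2, 2 and 1 lower.

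With the level filter at the 75th percentile, the median was 0.25 for H3K27me3 in A, and -0.049 and -0.080 for H3K4me3 in A and C. H3K27Ac then had 0 higher in A, and H3K27me3 had 1, 0 and 0 higher and 0, 2 and 1 lower. With no level filter, medians, centred on all windows, were 0.25, 0.031 and 0.27 for H3K4me3, and 0.011 and 0.17 for H3K27Ac in A and C. H2A119Ub then had 1 higher in B and 2 lower in A, and H3K27Ac 2 higher in A and 1 in C. H3K27me3 had 17, 2 and 10 higher and 5, 19 and 12 lower, and H3K4me3 had 1, 1 and 2 lower.

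Without centring, medians were 0.12 and -0.13 for H2A119Ub in A and B, and 0.14 and 0.21 for H3K27Ac in A and C. They were 0.77 for H3K27me3 in A, and 0.25, 0.039 and 0.29 for H3K4me3. H2A119Ub then had 1 higher in A, H3K27Ac 2 in A and 1 in C, and H3K27me3 10 in A and 0 in B, with 1 lower in A and 17 in B. With quantile normalization, medians were 0.30 for H3K27me3 in C, and -0.029 and -0.060 for H3K4me3 in A and C. H3K27me3 then had 2 higher and 2 lower in B, and 1 lower in C. With the pseudocount at the 25th percentile, H3K27Ac had 0 higher in A, and H3K27me3 had 0 higher and 3 lower in B and 1 lower in A and in C. With a pseudocount of 1 tag, H2A119Ub had 1 lower in C.

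As a share of the windows above the level filter, the family held 0.854%, 0.875% and 0.882% of H3K4me3 in PD-L1 high, unselected treated and untreated cells. It held 0.628%, 0.582% and 0.624% of H3K27Ac, 0.0457%, 0.0773% and 0.0630% of H3K27me3, and 0.203%, 0.192% and 0.205% of H2A119Ub. Shares were also taken without 7 of the minor paralogs, with Rpl32l left in. They were 0.824%, 0.844% and 0.843% for H3K4me3, and 0.565%, 0.523% and 0.547% for H3K27Ac. They were 0.0491%, 0.0909% and 0.0708% for H3K27me3, and 0.243%, 0.233% and 0.249% for H2A119Ub. The cause of these differences was not tested, beyond the threshold or windows each setting alters. The H3K27me3 median kept its sign in A and in B under every setting above, from 0.25 to 0.77 in A.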
